A study of Mus musculus with 18 samples.

Results

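The genes described here are 7 members of the POU family of transcription factors outside the Oct1 and Oct4 branches. They are Pou3f1, Pou3f2, Pou3f3 and Pou3f4 of class III, Pou4f1 and Pou4f2 of class IV, and Pou6f1 of class VI. They were taken by gene name from a table of counts for 21995 genes. All 7 passed the filter on low counts, as did 18352 genes in all. Pou4f3 of class IV is in the table, but is not among the 7.

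POU proteins bind DNA through a POU-specific domain and a POU homeodomain joined by a flexible linker, and many of them recognise the octamer motif ATGCAAAT. Class III factors act in the early epiblast, the developing brain and Schwann cells, often on DNA sites shared with Sox proteins. Class IV factors are best known from sensory neurons and retinal ganglion cells, and Pou6f1 from the nervous system and other adult tissues.

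The samples were mouse embryonic stem cells (ESCs), which can form all tissues of the body, of a parental line (also labelled WT) and of a line labelled Oct1 cKO (also labelled KO). Oct1 is the POU factor encoded by Pou2f1, and retinoic acid, a vitamin A derivative, drives ESCs to differentiate. RNA-seq libraries came from 6 groups of 3: parental and Oct1 cKO cells at day 0, day 2 and day 6 of a protocol that used 1.5 ug/ml retinoic acid on 0.01% gelatin. The labels give no allele, deleted part, Cre driver or number of clones. Nor do they state that a group's 3 libraries are separate cultures, so p-values measure only library-to-library spread, which may be technical.

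Libraries held 13694126 to 19296966 counts, and 3 counts corresponded to 0.136 to 0.235 CPM (read counts scaled to a common library size, with TMM factors). Pou2f1 was lower in the cKO at each day, at 79.3 against 129 CPM, 59.7 against 103 CPM and 42.0 against 63.4 CPM, with counts taken over the whole gene. The pluripotency markers that define ESCs summed to 6046 to 6104 CPM in the parental and 6836 to 7245 CPM in the cKO libraries at day 0, with none of 14 at 0. Replicate 3 of the cKO at day 0 stood apart, with a chi-square per degree of freedom of 12 and 11.6 against replicates 1 and 2. In bulk libraries, fewer cells of a type and less RNA per cell cannot be told apart.

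By the GENCODE annotation of GRCm38, each class III gene is a single exon: Pou3f1 at chr4:124656807-124660655 (plus strand), Pou3f2 at chr4:22482780-22488366 (minus), Pou3f3 at chr1:42695768-42703176 (plus) and Pou3f4 at chrX:110814280-110817207 (plus). Pou4f1 lies at chr14:104461676-104467999 (minus, transcripts of 2 to 3 exons), Pou4f2 at chr8:78433010-78436645 (minus, 2 exons) and Pou6f1 at chr15:100575318-100599984 (minus, transcripts of 2 to 11 exons). Exons of the antisense gene Gm2164 overlap those of Pou3f1 over 7.42% of its stretches of 50 bases, and without strand the reads of both cannot be told apart. Gm2164 itself held 0 to 13 counts per library, against 61 to 576 for Pou3f1. Pou4f1 and Pou4f2 share 23 stretches of 50 bases, 0.498% and 0.729% of their exons.

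RefSeq promoter windows of 300 bases (250 before to 50 after the gene start, GRCm38.p6) were matched for 6 of the 7 genes, all but Pou3f1. None of the 6 held the octamer ATGCAAAT or its reverse complement ATTTGCAT, which 1.735% of 32851 windows hold. The core of that motif (ATGCAAA or TTTGCAT, contained in the octamer) was in the Pou6f1 window alone, beginning 138 bases before the start, and in 4.627% of all windows. CpG dinucleotides numbered 15 in Pou3f4, 18 in Pou3f3 and in Pou4f2, 24 in Pou3f2, 26 in Pou6f1 and 57 in Pou4f1, against a median of 7 over all windows, and the Pou4f1 count is above that of 99.8% of them. These matches describe letters in a window and say nothing of binding. The 250 bases before the start are shown for the genes with a matched window that were lower in the Oct1 cKO at day 2 or day 6 with more than 3 counts in each group compared. They are Pou3f3 (chr1:42695518-42695767, plus strand), Pou4f1 (chr14:104468000-104468249, minus strand) and Pou6f1 (chr15:100599985-100600234, minus strand), written 5′ to 3′ with the motif core in capitals.
Pou3f3: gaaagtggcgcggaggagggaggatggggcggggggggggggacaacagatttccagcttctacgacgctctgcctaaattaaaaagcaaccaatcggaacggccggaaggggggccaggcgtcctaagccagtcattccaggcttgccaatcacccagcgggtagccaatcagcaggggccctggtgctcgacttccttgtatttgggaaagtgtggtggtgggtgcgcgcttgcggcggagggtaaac
Pou4f1: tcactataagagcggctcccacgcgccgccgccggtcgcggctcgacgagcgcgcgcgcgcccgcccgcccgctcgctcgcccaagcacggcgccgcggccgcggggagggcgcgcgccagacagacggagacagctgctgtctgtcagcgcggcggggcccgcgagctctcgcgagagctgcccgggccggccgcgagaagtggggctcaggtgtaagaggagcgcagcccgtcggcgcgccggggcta
Pou6f1: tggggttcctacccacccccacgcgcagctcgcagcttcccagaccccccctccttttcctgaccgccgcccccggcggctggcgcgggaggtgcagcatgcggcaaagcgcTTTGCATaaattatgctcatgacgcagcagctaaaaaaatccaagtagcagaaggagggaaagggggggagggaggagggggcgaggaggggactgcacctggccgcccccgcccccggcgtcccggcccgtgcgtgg

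Among the 7 genes, Pou3f1 had the highest level per length (CPM per kb of exon) at day 2 and day 6 in both genotypes. It reached 6.91 CPM per kb in parental cells at day 2, or 67.8% of the 7 genes' summed level, and 4.25 CPM per kb in cKO cells (62.8%). The order at day 0 differed. In parental cells Pou6f1 led at 1.49 CPM per kb, followed by Pou3f1 (1.08) and Pou4f1 (1.08), whose libraries overlapped, and Pou4f2 (0.827). In cKO cells Pou4f2 led at 1.91 CPM per kb, ahead of Pou6f1 (1.43) and Pou3f1 (1.41), whose libraries overlapped, and of Pou4f1 (1.06).

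At day 6, Pou6f1 followed Pou3f1 in both genotypes, at 2.18 against 3.04 CPM per kb in parental cells and 0.382 against 1.05 in cKO cells, with no overlap of libraries. In parental cells that order depends on the length used, since by CPM alone Pou6f1 was the higher (15.2 against 11.7). The length was the exon union, 6949 bases over 11 transcripts for Pou6f1 and 3849 bases for Pou3f1. Pou3f2, Pou3f3 and Pou3f4 stayed under 0.5 CPM per kb in every group, with Pou3f2 in cKO cells at day 0 (0.457) the highest of them. The neighbours Pou3f2 and Pou3f4 overlapped in parental cells at day 0 and day 2, and Pou3f3 and Pou4f1 overlapped at day 6 in both genotypes. The 7 genes together summed to 4.79, 10.2 and 5.82 CPM per kb in parental cells at days 0, 2 and 6, and to 6.42, 6.76 and 1.69 in cKO cells. For scale, Pou5f1, which encodes Oct4, stood at 397, 41.4 and 0.161 CPM per kb in parental and 675, 195 and 13.8 in cKO cells.

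**Figure D1:**
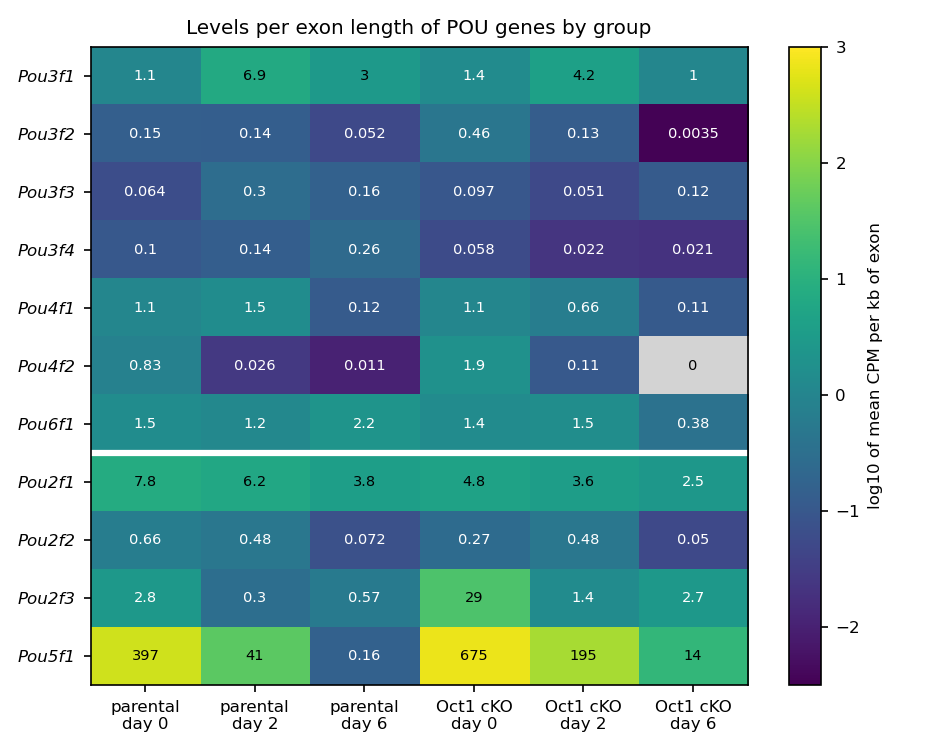
Heat map of mean CPM per kb of exon for the 7 genes (upper rows) and, for scale, Pou2f1, Pou2f2, Pou2f3 and Pou5f1 (lower rows), with 1 column per group of 3 libraries. Colour gives log10 of the mean and each cell prints the mean, with grey for 0. Pou3f1 is the highest of the 7 at day 2 (6.91 and 4.25) and day 6 (3.04 and 1.05).

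Pou3f1 encodes Oct6, a factor of the epiblast and of early neural cells that is also required for Schwann cells to myelinate on time. At day 0 its level was 4.13, 4.22 and 4.16 CPM in the parental libraries and 5.71, 5.18 and 5.33 CPM in the cKO libraries. At day 2 it was 23.6, 29.1 and 27.1 CPM against 14.6, 15.5 and 18.9 CPM. At day 6 it was 10.7, 13.4 and 10.97 CPM against 4.11, 3.53 and 4.45 CPM. Each cKO library was above each parental one at day 0 and below each at day 2 and at day 6, and day 2 was the highest day in both genotypes.

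The difference at day 0 was small, with a log2 fold change of 0.37 ± 0.16 (SE, cKO minus parental, adjusted p = 0.0461). That call was lost with library sizes alone and when any of the 6 libraries of day 0 was left out (adjusted p = 0.0204 to 0.119 over the alternatives). At day 2 Pou3f1 was 1.63-fold lower in the cKO (-0.70 ± 0.09, adjusted p = 1.58e-08), and at day 6 it was 2.90-fold lower (-1.54 ± 0.13, adjusted p = 2.33e-13).

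Over time, Pou3f1 rose 6.36-fold from day 0 to day 2 in parental cells (2.67 ± 0.12, adjusted p = 2.5e-22) and 3.01-fold in cKO cells (1.59 ± 0.13, adjusted p = 2.31e-14). It then fell 2.27-fold from day 2 to day 6 in parental cells (-1.18 ± 0.09) and 4.05-fold in cKO cells (-2.02 ± 0.13). At day 6 the parental level was still 2.80-fold above day 0 (1.48 ± 0.13, adjusted p = 3.27e-13), while the cKO level was 1.34-fold below it (-0.43 ± 0.16, adjusted p = 0.015).

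Pou3f2 encodes Brn2, a class III factor of neural progenitors and of the hypothalamus that is used to convert fibroblasts to neurons. Before retinoic acid it was at 1.0, 0.506 and 0.930 CPM in parental cells, and at 2.41, 3.06 and 2.20 CPM in the cKO. After 2 days the values were 0.859, 0.657 and 0.797 CPM against 0.887, 0.817 and 0.535 CPM. After 6 days they were 0.299, 0.156 and 0.418 CPM against 0, 0.0579 and 0 CPM. The cKO libraries were thus all higher at day 0, overlapped with the parental ones at day 2 and were all lower at day 6, where they held 1 count together, in replicate 2, against 17.

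Pou3f2 was 3.13-fold higher in the cKO at day 0 (1.65 ± 0.28, adjusted p = 5.02e-06). The genotypes were not called different at day 2 (-0.04 ± 0.34, adjusted p = 0.921). At day 6 the ratio of parental to cKO counts was 14.5, with an exact 95% interval of 2.27 to 605 that covers counting error only (adjusted p = 0.000926). Within parental cells Pou3f2 did not pass the test from day 0 to day 2 (-0.05 ± 0.33, adjusted p = 0.89), and at day 6 it was 2.72-fold below day 0 (adjusted p = 0.00163) and 2.62-fold below day 2 (adjusted p = 0.00188). In cKO cells it fell 3.35-fold by day 2 (-1.74 ± 0.29, adjusted p = 1.15e-06), and the ratio of day 0 to day 6 was 126 (22.1 to 5010).

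Pou3f3 encodes Brn1, a class III factor of the cortex and of the kidney tubule. Before retinoic acid it had 0.125, 0.563 and 0.744 CPM in parental cells, and 0.602, 0.549 and 1.0 CPM in the cKO. The values were 2.62, 2.22 and 1.79 CPM against 0.190, 0.408 and 0.535 CPM at day 2. They were 1.49, 0.934 and 1.1 CPM against 1.01, 0.405 and 1.27 CPM at day 6. The groups overlapped at day 0 and at day 6 and were apart at day 2, where the lowest parental library was above the highest cKO library by more than the spread within either group.

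At day 2 Pou3f3 was 5.82-fold lower in the cKO (-2.54 ± 0.37, adjusted p = 2.7e-07). No difference was called at day 0 (0.61 ± 0.47, adjusted p = 0.292), nor 6 days later (-0.41 ± 0.35, adjusted p = 0.29). In parental cells it rose 4.57-fold from day 0 to day 2 (2.19 ± 0.35, adjusted p = 7.25e-07) and fell 1.88-fold by day 6 (-0.91 ± 0.28, adjusted p = 0.00327), where it was 2.43-fold above day 0 (adjusted p = 0.00371). In cKO cells the change from day 0 to day 2 was -0.96 ± 0.50 (adjusted p = 0.0837) and that from day 0 to day 6 was 0.26 ± 0.41 (adjusted p = 0.562). Its rise from day 2 to day 6 in the cKO was called (1.22 ± 0.47, adjusted p = 0.0173) although libraries overlapped, and the call was lost without cKO replicate 1 of day 2 and without cKO replicate 1 or 3 of day 6 (adjusted p up to 0.12).

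Pou3f4 encodes Brn4, an X-linked factor needed in the inner ear for hearing. Its parental counts were 7, 5 and 3 at day 0, 11, 6 and 9 at day 2, and 14, 13 and 17 at day 6, or 0.302, 0.416 and 0.753 CPM on average. Its cKO counts were 2, 3 and 2 at day 0, 0, 1 and 2 at day 2, and 1, 1 and 1 at day 6, or 0.170, 0.0640 and 0.0603 CPM on average. The genotypes overlapped at day 0 in reads at or near the floor of 3 counts, and each parental library was above each cKO library at day 2 and at day 6. Parental day 6 was the only group in which each library reached the filter's minimum count of 10. The place of Pou3f4 among the tested genes thus rested on the group in which it was highest. Without the filter, its calls at day 6 between genotypes and against parental day 0 were kept. Its call from day 2 to day 6 in parental cells was lost.

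For Pou3f4 the ratio of parental to cKO counts was 6.70 at day 2 (exact 95% interval 2.05 to 34.6, adjusted p = 0.00068) and 12.5 at day 6 (4.0 to 62.8, adjusted p = 1.31e-06). The fitted value at day 2 was -2.61, and -3.51 without cKO replicate 3 of that day. At day 0 the log2 fold change was -0.82 ± 0.61 (adjusted p = 0.269). In parental cells Pou3f4 was not called from day 0 to day 2 (0.47 ± 0.46, adjusted p = 0.342) and was 2.47-fold higher at day 6 than at day 0 (1.30 ± 0.41, adjusted p = 0.00372). Its rise from day 2 to day 6 (0.83 ± 0.36, adjusted p = 0.0332) was lost in 11 of 24 alternatives, among them DESeq2 and leaving out any parental library of day 6 (adjusted p = 0.0306 to 0.167). Within cKO cells none of the 3 changes between days was called by edgeR (unadjusted p = 0.137, 0.121 and 0.962) or by any alternative.

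Pou4f1 encodes Brn3a, a factor of sensory neurons of the peripheral ganglia and brain. Its level at day 0 was 5.56, 4.95 and 4.59 CPM in parental libraries and 5.56, 4.08 and 5.27 CPM in cKO libraries. At day 2 the parental libraries had 7.37, 7.17 and 6.73 CPM and the cKO libraries 2.73, 3.27 and 3.28 CPM. At day 6 they had 0.448, 0.467 and 0.783 CPM against 0.715, 0.0579 and 0.826 CPM. The genotypes overlapped at day 0 and at day 6 and were fully apart at day 2, and cKO replicate 2 of day 6 held 1 count where replicates 1 and 3 held 12 and 13.

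Pou4f1 was 2.29-fold lower in the cKO at day 2 (-1.2 ± 0.17, adjusted p = 1.44e-07). Neither day 0 (-0.01 ± 0.18, adjusted p = 0.974) nor day 6 (-0.11 ± 0.43, adjusted p = 0.834) gave a call. From day 0 to day 2 it rose 1.41-fold in parental cells (0.50 ± 0.16, adjusted p = 0.00414) and fell 1.61-fold in cKO cells (-0.69 ± 0.19, adjusted p = 0.00169). By day 6 it was 8.82-fold below day 0 in parental cells (-3.14 ± 0.26, adjusted p = 5.63e-14) and 9.44-fold below in cKO cells (-3.24 ± 0.28, adjusted p = 3.04e-13). From day 2 to day 6 the falls were 12.4-fold in parental and 5.85-fold in cKO cells (adjusted p = 8.1e-17 and 1.39e-09).

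Pou4f2 encodes Brn3b, a factor of retinal ganglion cells. At day 0 it had 2.75, 2.53 and 2.67 CPM in parental libraries and 6.09, 6.35 and 5.90 CPM in cKO libraries. By day 2 its counts were 1, 1 and 3 in parental and 1, 9 and 7 in cKO libraries. By day 6 they were 0, 2 and 0 in parental and 0, 0 and 0 in cKO libraries. All cKO libraries were above all parental ones at day 0, the groups overlapped at day 2 through cKO replicate 1, and at day 6 both were at or under the floor of 3 counts, so no fold is given there (unadjusted p = 0.149).

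Pou4f2 was 2.30-fold higher in the cKO at day 0 (1.2 ± 0.20, adjusted p = 2.56e-06). At day 2 it was also called higher (2.04 ± 0.68, adjusted p = 0.00876), a call lost without cKO replicate 2 of that day (adjusted p = 0.0852), and the value was 2.70 without parental replicate 3. It fell from day 0 to day 2 in parental cells (-4.92 ± 0.42, adjusted p = 5.38e-13) and 16.9-fold in cKO cells (-4.08 ± 0.29, adjusted p = 4.37e-15). The parental value rests on 5 counts at day 2 and was -5.61 without parental replicate 3 of that day. The ratio of day 0 to day 6 counts was 77.4 in parental cells (exact 95% interval 21.0 to 646). In cKO cells Pou4f2 was at least 33.8-fold lower at day 6 than at day 0 and at least 1.95-fold lower than at day 2, against the floor of 3 counts per library.

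Pou6f1 encodes Brn5, a class VI factor found in brain and several other tissues. The parental libraries of day 0 held 9.38, 10.7 and 10.9 CPM, against 9.47, 11.6 and 8.78 CPM in the cKO. Those of day 2 held 8.41, 7.53 and 8.27 CPM against 10.3, 10.2 and 11.5 CPM. Those of day 6 held 15.8, 14.3 and 15.5 CPM against 3.28, 2.03 and 2.67 CPM. The genotypes overlapped at day 0, the cKO was higher in each library at day 2, and at day 6 each cKO library was far below each parental one.

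At day 6 Pou6f1 was 5.71-fold lower in the cKO (-2.51 ± 0.13, adjusted p = 9.83e-20). At day 2 it was 1.32-fold higher (0.40 ± 0.11, adjusted p = 0.00173), a call lost with library sizes alone (0.21, adjusted p = 0.097). At day 0 it was not called (-0.06 ± 0.11, adjusted p = 0.672). In parental cells Pou6f1 was 1.28-fold lower at day 2 than at day 0 (-0.36 ± 0.11, adjusted p = 0.00373, and -0.02 with library sizes alone, adjusted p = 0.902) and 1.47-fold higher at day 6 than at day 0 (0.55 ± 0.10, adjusted p = 5e-06). In cKO cells it was not called from day 0 to day 2 (0.11 ± 0.11, adjusted p = 0.392), a change that library sizes alone called (0.27, adjusted p = 0.0334). It then fell 4.01-fold from day 2 to day 6 (-2.0 ± 0.14, adjusted p = 1.08e-15).

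**Figure D2:**
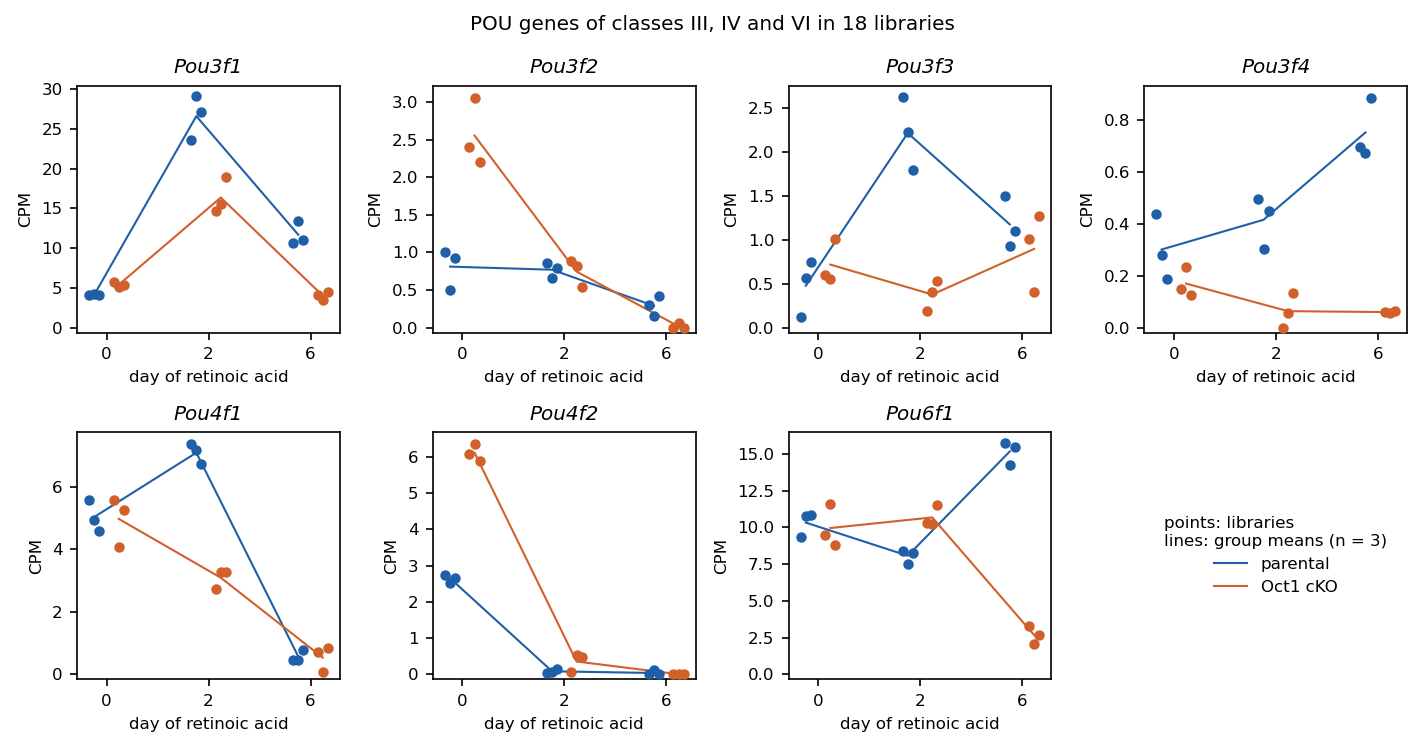
CPM of each of the 7 genes (vertical axes, each with its own scale) at days 0, 2 and 6, which are spaced evenly. Points are libraries, and lines join the means of 3 libraries in parental (blue) and Oct1 cKO cells (orange). Pou3f1 peaks at day 2 in both genotypes, and Pou6f1 stands at 15.2 CPM in parental and 2.66 CPM in cKO cells at day 6.

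Among these genes, Pou3f1, Pou3f2 and Pou6f1 had called genotype differences of opposite sign at different days, and the other genes did not. The higher calls of Pou3f1 at day 0 and of Pou4f2 and Pou6f1 at day 2 were each lost in at least 1 alternative. At day 0 the called genes, Pou3f1, Pou3f2 and Pou4f2, were all higher in the Oct1 cKO: 3 of 7 were higher and 0 lower, where 26.4% and 27% of all tested genes were. At day 2, Pou4f2 and Pou6f1 were higher and Pou3f1, Pou3f3, Pou3f4 and Pou4f1 lower, or 2 and 4 of 7 where 33.7% and 33.6% of all genes were called. At day 6 no gene was higher and Pou3f1, Pou3f2, Pou3f4 and Pou6f1 were lower, or 0 and 4 of 7 against a background of 36.7% and 37.8%. Pou3f1 and Pou3f4 were the genes called lower at both day 2 and day 6. With so few genes, these counts describe the 7 and were not tested against the background. The median log2 fold change of the 7 was 0.37, -0.70 and -2.51 at days 0, 2 and 6, against 0, -0.01 and 0 over all genes tested. At day 6 it was -2.03 without Pou4f2, whose groups were both at or under 3 counts.

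**Figure D3:**
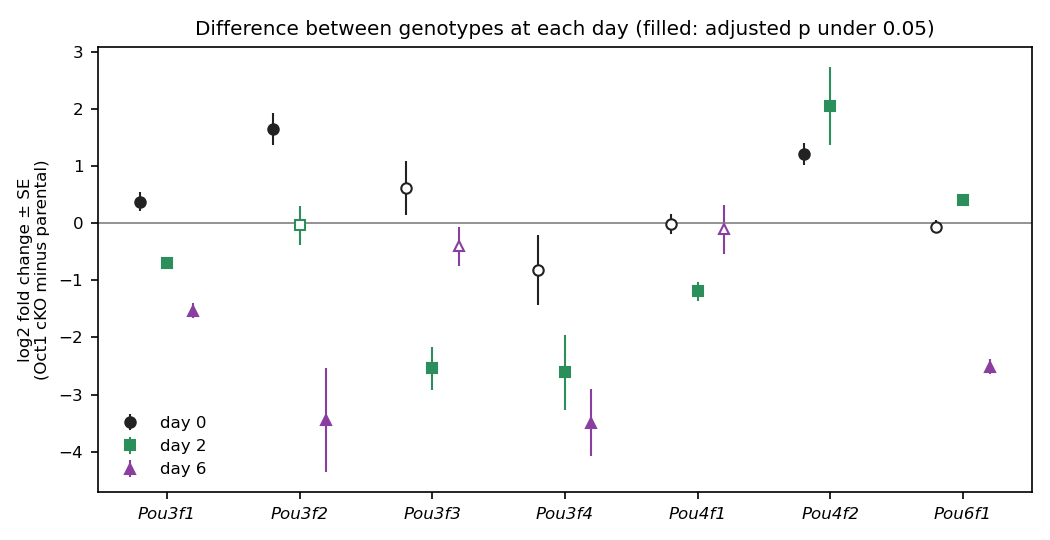
Log2 fold change of Oct1 cKO minus parental cells for each gene at day 0 (circles), day 2 (squares) and day 6 (triangles), with SE from the quasi-likelihood fit on 3 libraries a group. Filled symbols passed an adjusted p of 0.05, and Pou4f2 at day 6 is left out because both groups are at or under 3 counts. The 3 filled points of day 0 lie above 0 and the 4 of day 6 below it.

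Within parental cells, Pou3f1, Pou3f3 and Pou4f1 rose and Pou4f2 and Pou6f1 fell from day 0 to day 2, or 3 of 7 higher and 2 lower against 43.2% and 37.7% of all genes. Between day 0 and day 6 all 7 were called, with Pou3f1, Pou3f3, Pou3f4 and Pou6f1 higher and Pou3f2, Pou4f1 and Pou4f2 lower, or 4 and 3 against 45.3% and 40.2%. From day 2 to day 6, Pou3f4 and Pou6f1 were higher and Pou3f1, Pou3f2, Pou3f3 and Pou4f1 lower, or 2 and 4 against 42.6% and 36.9%. The 3 comparisons share libraries, so their counts are not independent.

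Within Oct1 cKO cells, Pou3f1 was the gene that rose from day 0 to day 2, and Pou3f2, Pou4f1 and Pou4f2 fell, or 1 and 3 of 7 against 41% and 35.5% of all genes. Between day 0 and day 6 none rose and Pou3f1, Pou3f2, Pou4f1, Pou4f2 and Pou6f1 fell, or 0 and 5 against 41.4% and 40.4%. From day 2 to day 6, Pou3f3 rose and Pou3f1, Pou3f2, Pou4f1, Pou4f2 and Pou6f1 fell, or 1 and 5 against 39.6% and 41.6%. The median change of the 7 from day 0 to day 6 was -1.90 in cKO and 0.55 in parental cells, where over all genes it was 0.00 and 0.07.

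**Figure D4:**
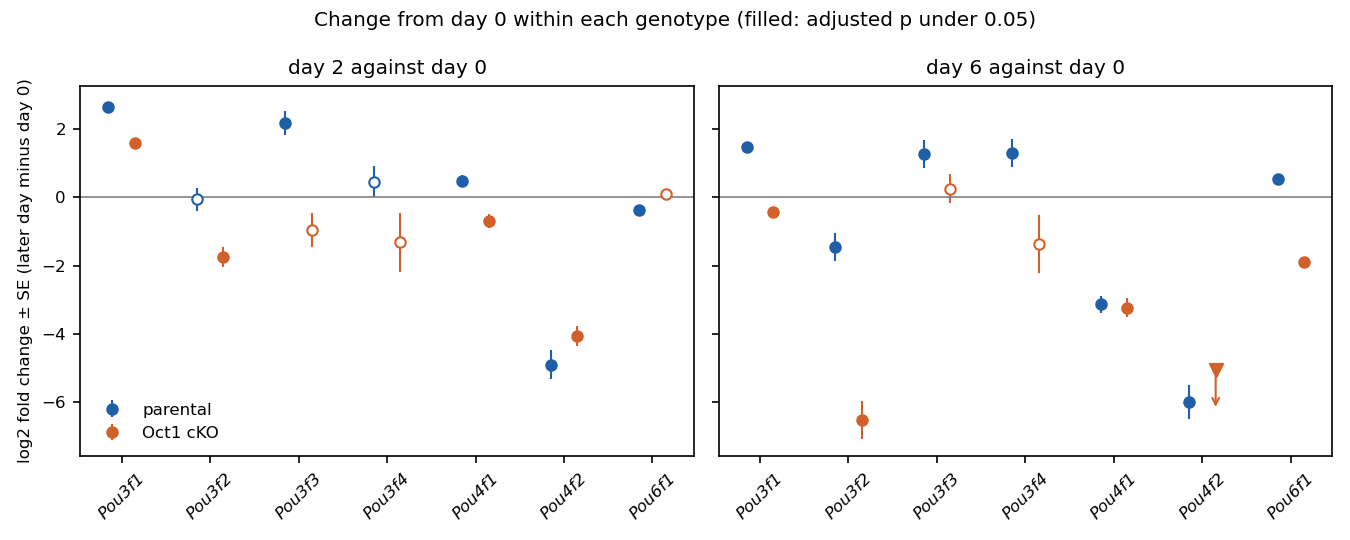
Log2 fold change from day 0 to day 2 (left) and to day 6 (right) in parental (blue) and Oct1 cKO cells (orange), with SE, and filled symbols for an adjusted p under 0.05. The arrow marks Pou4f2 in cKO cells, which had 0 counts at day 6 and was at least 33.8-fold lower. Pou3f1, Pou3f3, Pou3f4 and Pou6f1 are filled above 0 at day 6 in parental cells, and no cKO point is filled above 0 there.

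The genotype by day interaction tests whether the change between days differed between the genotypes. From day 0 to day 2, the change in the cKO was lower than in parental cells for Pou3f1 (-1.08 ± 0.18, adjusted p = 4.53e-06), Pou3f2 (-1.69 ± 0.44, adjusted p = 0.00135), Pou3f3 (-3.15 ± 0.63, adjusted p = 5.14e-05) and Pou4f1 (-1.19 ± 0.25, adjusted p = 0.0001). It was higher for Pou6f1 alone (0.46 ± 0.16, adjusted p = 0.0123), a call lost with library sizes alone, without parental replicate 2 of day 2 and without cKO replicate 3 of day 0 (adjusted p up to 0.128). That is 1 of 7 higher and 4 lower, where 30.1% and 26.9% of all genes were called.

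From day 0 to day 6, the interaction was called lower for Pou3f1 (-1.91 ± 0.21, adjusted p = 2.7e-10), Pou3f2 (adjusted p = 6.83e-06, resting on 1 cKO count at day 6), Pou3f4 (adjusted p = 0.0154, on 3 cKO counts at day 6) and Pou6f1 (-2.45 ± 0.18, adjusted p = 6.54e-15). The count was 0 of 7 higher and 4 lower, against 32% and 31.9% of all genes. The Pou3f4 call was lost without cKO replicate 2 of day 0 (adjusted p = 0.0671). Pou3f3 (-1.02 ± 0.59, adjusted p = 0.13) and Pou4f1 (-0.10 ± 0.46, adjusted p = 0.88) were not called.

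From day 2 to day 6, the change in the cKO was higher than in parental cells for Pou3f3 (2.13 ± 0.54, adjusted p = 0.000833) and Pou4f1 (1.09 ± 0.48, adjusted p = 0.0463), and lower for Pou3f1 (-0.84 ± 0.16, adjusted p = 2.73e-05), Pou3f2 (adjusted p = 0.00308), Pou4f2 and Pou6f1 (-2.91 ± 0.18, adjusted p = 2.12e-17). That is 2 of 7 higher and 4 lower, against 31.5% and 32% of all genes. The Pou4f1 call was lost in 8 of 24 alternatives (adjusted p = 0.000542 to 0.356), and its value was 1.70 without cKO replicate 2 of day 6. The Pou4f2 call (adjusted p = 0.04995) rests on 0 cKO counts at day 6 and was lost in 18 of 23 alternatives.

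Sox proteins of groups B and C are known partners of class III POU factors on shared DNA sites, as in the neural enhancer of Nes, and the list of these Sox genes was followed beside them. At day 2, 1 of 7 was higher and 4 were lower in the cKO, with a median log2 fold change of -1.04 against -0.01 over all genes, where 33.7% and 33.6% of all genes were called higher and lower. At day 6, 2 were higher and 3 lower, near the 36.7% and 37.8% of all genes, with a median of -1.06 against 0. Sox4 was lower in the cKO at day 2, at 83.4 ± 4.91 against 398 ± 10.8 CPM (SD, n = 3, -2.26 ± 0.05, adjusted p = 1.34e-29). Sox12 was lower at day 6, at 11.4 ± 0.463 against 119 ± 5.26 CPM (-3.39 ± 0.07), as was Sox11 at 16 ± 2.57 against 107 ± 7.67 CPM (-2.74 ± 0.07). The Sox genes named were taken from those with the smallest adjusted p at day 6 and do not stand for all 7. Nes, the intermediate filament gene of neural progenitors, was lower at day 2 (14 ± 0.407 against 46.5 ± 3.25 CPM, -1.73 ± 0.08) and at day 6 (30.8 ± 2.13 against 149 ± 13.5 CPM, -2.27 ± 0.06). The 18 tested neural progenitor genes gave 10 calls down and 4 up in the cKO at day 2. They gave 7 down and 5 up at day 6. Whether POU or Sox levels bear on Nes was not tested.

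Other genes of the tissues in which class III and class IV factors act were read from lists, against the 36.7% of all genes called higher and 37.8% called lower at day 6. Genes named from them are among those with the smallest adjusted p at day 6, so they do not stand for a whole list. For the early epiblast, the list of formative and primed pluripotency genes had 7 of 18 higher and 7 lower in the cKO at day 2. All genes were called at 33.7% and 33.6% on that day, and at day 6 the list had 5 higher and 9 lower. Of 17 neuron genes, 5 were higher and 11 lower in the cKO at day 6 (median -2.88), where Pou3f1, Pou3f2, Pou3f4 and Pou6f1 were lower, and Nefm, a neurofilament gene, stood at 7.93 ± 0.153 against 412 ± 45.6 CPM. Of 18 tested neural progenitor genes, 5 had a higher and 7 a lower level at day 6, a share near that of all genes, and Irx3, a patterning factor, was higher at 60.8 ± 7.01 against 9.77 ± 0.465 CPM. Of 7 tested proneural factors, 4 were higher and 0 lower in the cKO at day 6 (median 1.25), with a summed level of 12.9 to 15.9 against 11.2 to 13.4 CPM. Of 8 tested forebrain and hypothalamus genes 2 were higher and 4 lower, with Arnt2, the partner of Sim1 in the hypothalamus, at 3.05 ± 0.28 against 80.9 ± 2.53 CPM. Of 11 Schwann cell and myelin genes, 3 were higher and 6 lower at day 6, with Pmp22 at 52.2 ± 2.04 against 180 ± 8.17 CPM. Of 15 tested genes of sensory neurons and retinal ganglion cells, where Pou4f1 and Pou4f2 act, 4 were higher and 8 lower at day 6, when neither Pou4f gene was called between genotypes. Runx1, a factor of sensory neurons, was among the higher ones, at 11.8 ± 1.1 against 6.72 ± 0.443 CPM.

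Markers of other lineages moved with genotype and day beside the 7 genes. At day 6 the summed level of 17 neuron genes was 1071 to 1202 CPM in parental and 118 to 130 CPM in cKO libraries, with no gene at 0 in either group. That order was reversed at day 0 (552 to 564 against 622 to 702 CPM) and at day 2 (175 to 186 against 265 to 281 CPM). The 19 neural progenitor genes in the table summed to 682 to 768 against 256 to 313 CPM at day 6, with Hes5 at 0 in parental and Sox1 and Olig2 at 0 in cKO libraries. Their sum was also lower in the cKO at day 0 (534 to 554 against 395 to 431 CPM), and libraries overlapped at day 2. The forebrain and hypothalamus list summed to 108 to 111 against 8.64 to 8.81 CPM at day 6, with Six6 at 0 in both genotypes and Rax at 0 in the cKO. This list was higher in the cKO at day 0 (76.3 to 78.0 against 153 to 183 CPM) and lower at day 2 (64.9 to 72.9 against 42.1 to 45.7 CPM). Such sums are carried by the most abundant genes of a list, and by gene each of these 3 lists held called members in both directions. Over 9 fibroblast genes it was 4026 to 4326 against 494 to 595 CPM at day 6, and 1170 to 1237 against 362 to 375 CPM at day 0, with none at 0. Over 12 endoderm genes it was 853 to 905 against 1186 to 1337 CPM, and over 9 trophoblast genes 288 to 299 against 861 to 941 CPM at day 6, with none at 0. Over 10 mesoderm genes it was 617 to 657 against 316 to 324 CPM at day 6, with none at 0. Gene by gene, the mesoderm list was mixed on that day, with 5 calls down and 3 up in the cKO. The background was 37.8% down and 36.7% up. The fibroblast list had 7 calls down and 1 up, the endoderm list 2 down and 10 up, and the trophoblast list 1 down and 8 up. The 14 pluripotency genes summed to 480 to 500 CPM in parental and 1320 to 1385 CPM in cKO libraries at day 2. On that day Pou4f2, with overlapping libraries, was called higher in the cKO than in parental cells, and Pou4f1 lower. The part of such differences between cells in the values of the 7 POU genes was not tested.

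The genes whose levels moved most like each POU gene were ranked by Pearson correlation of log2 CPM over the 18 libraries, a description over libraries that share 6 groups. Hoxb8 was most like Pou3f1 (r = 0.9813), with 66.9 CPM in parental and 19.3 CPM in cKO cells at day 2, followed by H2-Q4, Prr36, Pik3r5 and Nrxn2. Sntb2 was most like Pou3f2 (r = 0.9593), then Nacc1, Ppp1r1a, Zfp365 and Pid1. Bcdin3d was most like Pou3f3 (r = 0.8228), then Tgtp1, Map3k10, Psme2 and Ccnjl.

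For class IV, Noxred1 was most like Pou4f1 (r = 0.9622), then Sobp, Pgbd5, Dtd2 and Spata31d1a, and Aoah most like Pou4f2 (r = 0.9867), at 14.2 CPM in parental and 37.3 CPM in cKO cells at day 0, then Gcsh, Ppat, Uba2 and Ubqln4. Zik1 was most like Pou6f1 (r = 0.9806), with 27.3 CPM in parental and 5.74 CPM in cKO cells at day 6, then Neo1, Cchcr1, Atp1b2 and Gnai1. Pou3f4, under 1 CPM in each group, was not ranked. Among the 21 pairs of the 7 POU genes, r ran from -0.42 for Pou3f1 with Pou4f2 to 0.764 for Pou3f2 with Pou4f1. The genes named above are the highest of all those ranked, so their r cannot be set against that of these pairs.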

How the data were processed

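The authors deposited 1 table of raw counts, a whole number for each gene and each of 18 libraries, without normalization. Per the labels' protocols, RNA was isolated with a reagent spelled Trysol and made into Illumina libraries. The tools and builds, per the submitters' processing notes, were Novoalign, DESeq2 1.10.0, mm10 and GRCm38, with no role given. Not given in the sources used here: the read counter, annotation release and strand setting.

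Libraries were grouped by the labelled genotype and differentiation day, and columns were matched by title. Genes passed filterByExpr (minimum count 10, minimum total 15), and edgeR 4.0.16 in R 4.3.3 fitted all 18 libraries with a coefficient per group, TMM scaling and robust quasi-likelihood tests. Adjusted p is the Benjamini-Hochberg value over 18352 genes within each of 12 comparisons, and genes under 0.05 were called. The SE derives from the quasi-likelihood F statistic. Ratios are given where a group held 1 to 3 counts, and a count of 0 is compatible with up to 3 counts. Intervals and floors cover counting error only. Levels per length divide CPM by the exon union of GENCODE vM21. The fit was tested on simulated data.

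The 7 genes and the 14 gene lists were chosen with earlier results of these data known. From each list at most 3 genes with the smallest adjusted p at day 6 and at least 1 CPM could be named, and likeness used 5 genes per POU gene at 1 CPM or more with an official symbol (log2 CPM, prior count 2). The alternatives were DESeq2 size factors, no scaling factor, no filter, DESeq2 1.42.0, only the libraries compared, a 2-fold minimum, leaving out each library, and, chosen after seeing the data, TMM without chromosome 11. Pou4f3 did not pass the filter and was not tested.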

Additional observations from a re-analysis of the deposited data

Results flagged for a closer look

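The results listed here are those in which the change between days differed between genotypes by a test of the difference itself, the edgeR interaction, given as the log2 change in the Oct1 cKO minus that in parental cells. From day 0 to day 2 the difference was -1.08 for Pou3f1, -1.69 for Pou3f2, -3.15 for Pou3f3, -1.19 for Pou4f1 and 0.46 for Pou6f1. The Pou6f1 call was lost in 3 of 24 alternatives. For Pou4f1 the change was a rise in parental cells and a fall in cKO cells, both called.

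From day 0 to day 6 the difference was -1.91 for Pou3f1, -5.09 for Pou3f2, -2.67 for Pou3f4 and -2.45 for Pou6f1. The fitted values of Pou3f2 and Pou3f4 rest on 1 and 3 cKO counts at day 6 and are no bound. For Pou3f1 and Pou6f1 the change from day 0 to day 6 was called a rise in parental and a fall in cKO cells.

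From day 2 to day 6 the difference was -0.84 for Pou3f1, -3.40 for Pou3f2, 2.13 for Pou3f3, 1.09 for Pou4f1, -4.56 for Pou4f2 and -2.91 for Pou6f1. The Pou4f2 value depends on how 0 counts are treated in the fit. Pou3f3 fell in parental cells over this interval and rose in cKO cells. That rise had overlapping libraries and lost its call in 3 of 23 alternatives. The interaction call was lost in 8 of 24 alternatives for Pou4f1 and in 18 of 23 for Pou4f2. Pou6f1 rose in parental cells and fell in cKO cells. The libraries of day 2 enter both this interaction and that from day 0 to day 2, so these are not independent.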

How the results depend on the processing

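Of 84 results (7 genes in 12 comparisons), 71 kept their call, and their direction where called, in every alternative that gave them a value, the 2-fold minimum aside. Another 13 gained or lost a call in at least 1 of these, and 0 called results reversed. With only the libraries compared, 18 of the 84 had no value. Some called results among the 71 were thus not tested there, such as Pou3f4 at day 2 and Pou3f2 at day 6 between genotypes. The 2-fold minimum kept 48 of the 61 called results. Over all genes it kept a share of 0.238 to 0.62 of the calls, depending on the comparison. Of 1998 values under the other alternatives, 54 lost and 3 gained a call. The gained calls were Pou4f2 from day 2 to day 6 in parental cells (adjusted p = 0.048 without parental replicate 2 of day 6), Pou3f3 from day 0 to day 2 in cKO cells (0.0481 without cKO replicate 2 of day 6) and Pou6f1 from day 0 to day 2 in cKO cells. With a 2-fold minimum, 3 of the 5 genes remained from day 0 to day 2 and 3 of the 6 from day 2 to day 6 in parental cells. The shares over all called genes there were 0.493 and 0.472, and the counts of the 7 were not tested against them. With only the libraries compared, 3 of 6 remained from day 2 to day 6 in cKO cells, because its filter dropped the others, as it did for 18 results in all.

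With library sizes alone, the median log2 change of all genes moved from 0.08 to 0.42 for day 2 against day 0 in parental cells, and from -0.01 to -0.20 and from 0 to -0.19 for cKO against parental at days 2 and 6. Calls higher and lower went from 7924 and 6913 to 10130 and 4589, from 6187 and 6172 to 4263 and 8187, and from 6740 and 6940 to 5241 and 8414. For the interaction from day 0 to day 2 they went from 5526 and 4937 to 4094 and 6317. TMM without chromosome 11, which holds none of the 7, changed the Pou4f2 interaction call alone. No paired analysis was possible because the labels number no replicates, and numbers by accession pair nothing. Genes at a few counts per library set the limit of precision.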
